A study of Mus musculus with 4 samples.

Results

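Melanocytes are the pigment cells that derive from the neural crest, and in mice some settle in the heart, including its valves. Their transcripts were examined here through 10 genes, Tyr, Tyrp1, Dct, Pmel, Mlana, Mitf, Kit, Ednrb, Slc45a2 and Sox10, chosen by name. All probe sets annotated to exactly 1 of these genes were taken, which gave 19 of the 22690 probe sets on the arrays, for 9 of the 10 genes and out of 12393 genes named on the arrays. None of the annotated probe sets carried Mlana alone, so that gene was not analysed here.

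The study read RNA of the mouse mitral valve on 4 arrays of 1 colour, from valves that differ in fibrillin-1, a glycoprotein of extracellular microfibrils. The Hom group held 1 array from Fbn1 C1039G/C1039G, the Het group 2 arrays labelled Fbn1 C1039/+ without the substituted residue, and the WT group 1 array from Fbn1 +/+. The labels gave no age, sex, strain or coat colour, no treatment, and did not say whether an array came from 1 animal or a pool. The Hom and WT values therefore had no replicate, the Het spread rests on 1 pair, p-values measure only the spread between these arrays, and so few arrays limit how precise any value can be. Fbn1 itself had 0 probe sets under its name and was not analysed here.

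In a melanocyte, melanin is made in an organelle, the melanosome. Tyrosinase starts the synthesis and the related proteins Tyrp1 and Dct act on later intermediates, while Pmel forms the fibrils on which melanin is laid down. The cells depend on the receptors Kit and Ednrb and on the transcription factors Sox10 and Mitf, and Mitf binds E-box motifs in the promoters of pigment enzyme genes. Bulk RNA cannot tell more melanocytes apart from more RNA per melanocyte.

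Values below are intensities after the arrays were given a common median, and a fold or log2 difference was computed after raising values below 19.0 to that floor. The tissue label was checked against 12 valve interstitial and fibroblast markers, of which 12 were read well above the floor on every array, decorin (Dcn) at 10880.3 in Hom, 14137 and 8045 in Het replicates 1 and 2, and 13529 in WT. No label names a cell type. Tyr, Tyrp1, Dct, Pmel and Slc45a2 each had at least 1 probe set above 62.6 on every array. That level is the median of all probe sets. These genes are members themselves, so this is not a separate check that melanocytes were present. Pigment itself was not measured. Het replicate 2 stood apart from the other arrays. It was at least 2-fold apart from WT at 7.94% of the 11313 probe sets with a mean of at least 62.6, against 2.08% for Het replicate 1 and 1.22% for Hom, and its median probe set lay 0.18 log2 units above WT, against -0.07 with the values as deposited. Each result is therefore given for the Het arrays separately.

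Of the 19 probe sets, 12 had a mean of at least 62.6 and entered the tests, and each of these 12 was above that level on all 4 arrays. They covered the 9 genes. The other 7 were 2 of Tyr, 2 of Sox10 and 1 each of Mitf, Kit and Ednrb. Nearest below the limit was the Tyr probe set 1448821_at, with a mean of 58.6, and nearest above it the Sox10 probe set 1424985_a_at, with a mean of 88.7. The Tyr probe set 1456095_at and the Mitf probe set 1422025_at were below the floor on all 4 arrays and say nothing of a difference.

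The promoters of the pigment enzyme genes are shown as a description of their sequence, and regulation of these genes was not tested. Windows of 250 bases upstream of the start were taken from RefSeq on GRCm38.p6 for the 6 member genes found in the table (Tyr, Tyrp1, Dct, Kit, Mitf and Ednrb, 9 windows); Pmel, Mlana, Slc45a2 and Sox10 had no entry. Capitals mark CATGTG, or its reverse complement CACATG, the core of the E-box that Mitf is known to bind. The lines run 5′ to 3′ on the gene's strand, for Tyrp1 at chr4:80833963-80834212 (plus), for Tyr at chr7:87493513-87493762 (minus) and for Dct at chr14:118052247-118052496 (minus).
Tyrp1: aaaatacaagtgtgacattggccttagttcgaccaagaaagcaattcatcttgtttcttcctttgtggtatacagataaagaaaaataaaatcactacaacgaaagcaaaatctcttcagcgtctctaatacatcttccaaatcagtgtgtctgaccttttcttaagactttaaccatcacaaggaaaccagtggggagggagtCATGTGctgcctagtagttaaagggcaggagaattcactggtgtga
Tyr: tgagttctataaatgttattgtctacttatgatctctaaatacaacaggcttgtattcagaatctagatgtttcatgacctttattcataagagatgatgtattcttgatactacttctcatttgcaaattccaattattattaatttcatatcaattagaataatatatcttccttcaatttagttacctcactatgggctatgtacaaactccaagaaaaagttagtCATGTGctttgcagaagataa
Dct: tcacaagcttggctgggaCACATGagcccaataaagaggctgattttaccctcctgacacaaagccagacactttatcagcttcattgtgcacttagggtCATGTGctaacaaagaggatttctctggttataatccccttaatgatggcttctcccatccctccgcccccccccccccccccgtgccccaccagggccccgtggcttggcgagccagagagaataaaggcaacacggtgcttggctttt

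The motif began 46 bases upstream of the start used for Tyrp1 and 21 bases upstream in Tyr. Dct held it at 150 bases on the gene's strand and at 232 bases on the other strand. The Tyrp1 window ends at 80834212, while the gene is annotated from 80834123. The start used for Tyrp1, and the motif before it, thus lie inside the annotated gene. Searched on both strands, CATGTG was present in 12.3% of all 32851 windows of the same length. The longer AGTCATGTG contains it and begins the motif known as the M box. This longer stretch was found in the Tyrp1 and Tyr windows but not in that of Dct, and in 0.228% of all windows. The windows of Kit, Mitf and Ednrb did not hold CATGTG, which says only that these letters are not in these windows. A match is a description of the sequence and was not tested for binding.

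Tyrp1, which in mice oxidises an intermediate of eumelanin synthesis, differed most between arrays. Its probe set 1415861_at read 242 in Hom, 208 and 650.1 in Het replicates 1 and 2, and 230.1 in WT. Het replicate 2 stood alone, and the other arrays lay close together. The level was 2.83-fold that of WT in Het replicate 2 and 3.13-fold that of Het replicate 1, an array with the same genotype label. A second probe set, 1415862_at, read 127 in Hom, 124 and 221 in the Het arrays and 124 in WT. The third, 1439409_x_at, whose probes may also bind other transcripts, read 326 in Hom, 374 and 632 in the Het arrays and 295 in WT. All 3 Tyrp1 probe sets were thus highest in Het replicate 2, by 1.78-fold to 2.83-fold over WT.

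Dct, dopachrome tautomerase, read 592 in Hom, 449 and 851 in the Het arrays, and 526 in WT. Hom and WT both lay between the Het arrays, which were 1.89-fold apart. Pmel, the fibril protein of the melanosome, showed the same order, with 412 in Hom, 331 and 733 in the Het arrays, and 398 in WT. Its Het arrays were 2.21-fold apart, while Hom was 1.03-fold WT. The size depended on the scaling. In log2 units the Het arrays were 0.92 apart for Dct and 1.15 for Pmel. With the values as deposited these were 0.66 and 0.89, and after quantile normalization 0.56 and 0.78.

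Tyr, the enzyme that limits the rate of melanin synthesis, was less uniform. Its brightest probe set, 1417717_a_at, read 149 in Hom, 102 and 167 in the Het arrays, and 106 in WT. By this probe set Hom and Het replicate 2 were high and Het replicate 1 and WT low, with Hom 1.40-fold WT, the highest Hom over WT ratio of the 12. The dimmer 1448821_at read 61.4 in Hom, 64.3 and 61.6 in the Het arrays, and 47.2 in WT, so there all 3 mutant arrays were above WT. The probe sets differed on Het replicate 1, which was 0.955-fold WT by the first and 1.36-fold WT by the second.

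Slc45a2, a transporter of the melanosome membrane that affects its pH, showed small differences between arrays by its brighter probe set. Probe set 1451055_at read 189.8 in Hom, 175 and 203 in the Het arrays, and 182 in WT. Probe set 1437430_at read 92.4 in Hom, 110.5 and 76.6 in the Het arrays, and 94.2 in WT. The 2 probe sets put Het replicate 2 at opposite ends, highest by the first and lowest by the second, and with the values as deposited the first also had Het replicate 2 below WT (-0.08 log2 units).

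**Figure D1:**
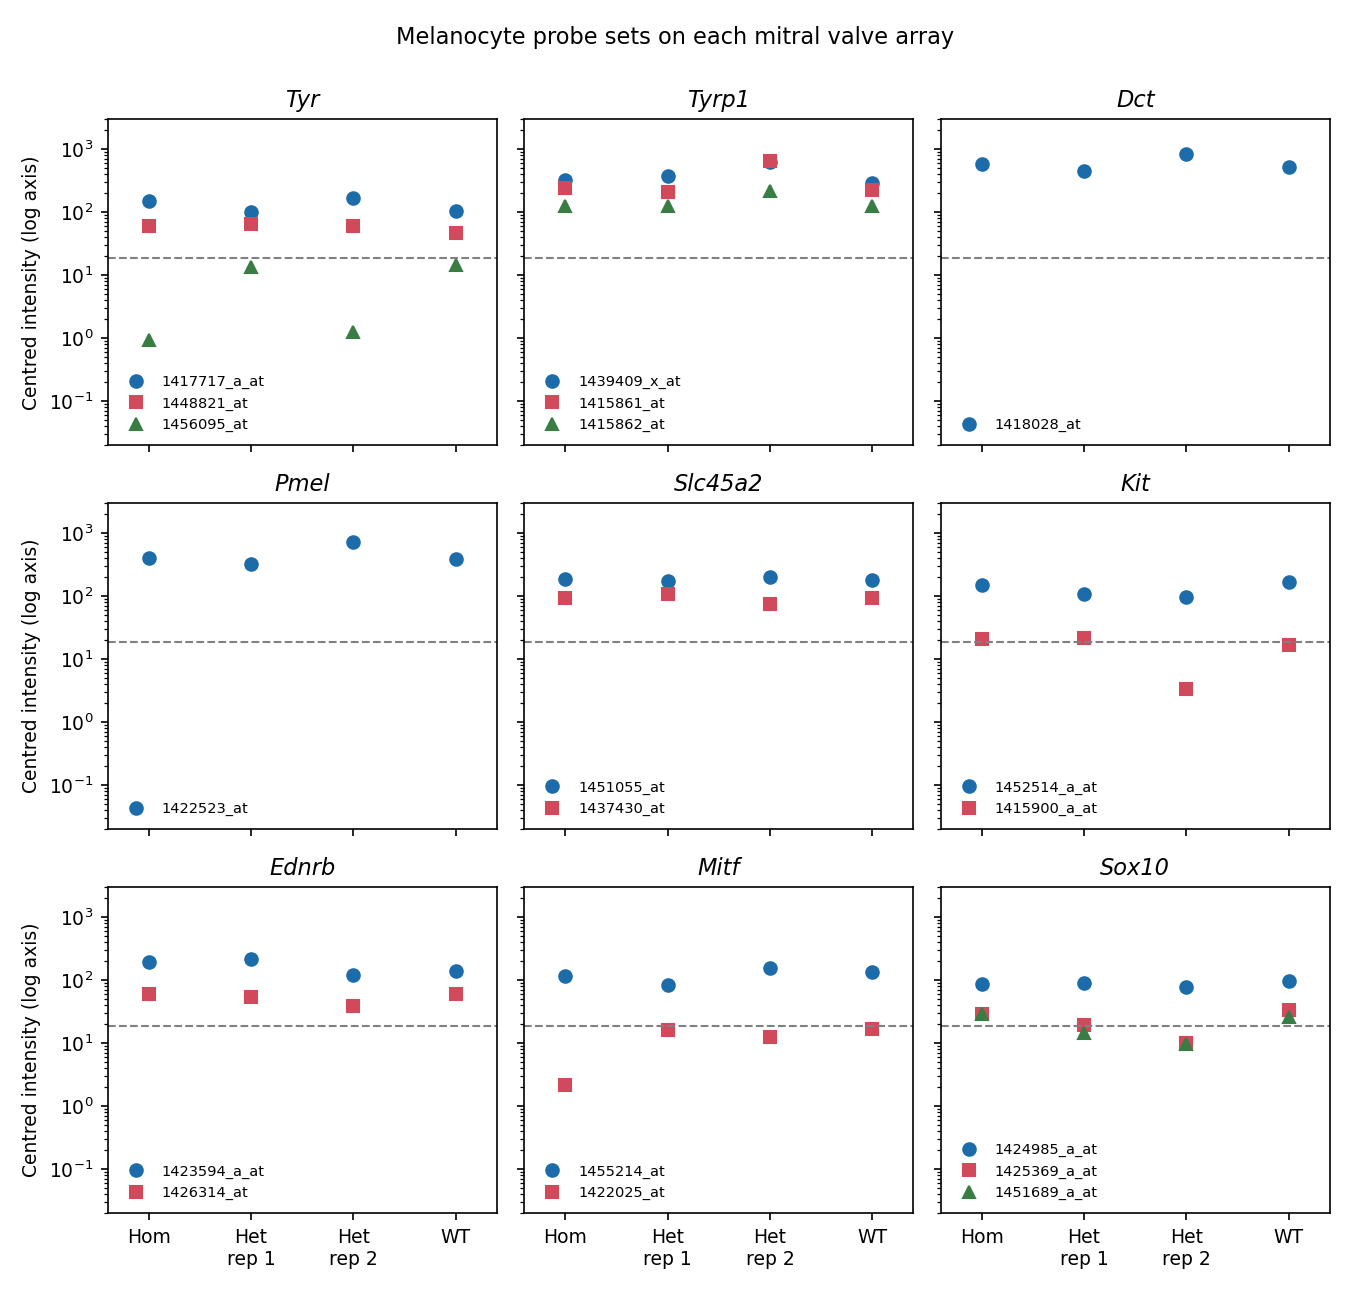
Centred intensity (log axis) of every melanocyte probe set on the Hom, Het replicate 1, Het replicate 2 and WT arrays, 1 panel for each gene and 1 symbol for each probe set, each point 1 array; the dashed line is the floor of 19.0. All 3 Tyrp1 probe sets, Dct and Pmel are highest in Het replicate 2, while Hom stays close to WT.

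Among the receptors, Kit, the receptor tyrosine kinase for stem cell factor, read 152 in Hom, 110.0 and 96.2 in the Het arrays, and 168 in WT by probe set 1452514_a_at. Both Het arrays lay below both Hom and WT, and their ranges did not overlap. This was so for 1 of the 12 melanocyte probe sets and for 10.5% of all probe sets tested. The Het arrays were 0.656-fold and 0.573-fold WT, and limma's moderated test gave a log2 difference of -0.71 (SE 0.49, n = 2 Het arrays, unadjusted p = 0.170, adjusted p = 0.9999). The other Kit probe set, 1415900_a_at, stayed at or near the floor, at 20.9 in Hom, 21.6 and 3.43 in the Het arrays, and 16.9 in WT.

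Ednrb, the endothelin receptor on which melanoblasts depend, read 198 in Hom, 218 and 120.4 in the Het arrays, and 143 in WT by probe set 1423594_a_at. Hom and Het replicate 1 were high and Het replicate 2 lowest. The dimmer 1426314_at read 61.4 in Hom, 53.5 and 38.5 in the Het arrays, and 60.4 in WT. Het replicate 2 was lowest by both probe sets, but they disagreed on Het replicate 1, at 1.53-fold and 0.885-fold WT.

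Of the transcription factors, Mitf read 117 in Hom, 85.5 and 155 in the Het arrays, and 135 in WT by probe set 1455214_at. Like Dct and Pmel it was lowest in Het replicate 1 and highest in Het replicate 2, although with the values as deposited Het replicate 2 was slightly below WT (-0.03 log2 units). Sox10, which acts upstream of Mitf, did not share that order. Its brightest probe set, 1424985_a_at, read 87.6 in Hom, 91.7 and 77.2 in the Het arrays, and 98.2 in WT. The other Sox10 probe sets were dim, at 29.4 and 29.2 in Hom, between 9.61 and 19.1 in the Het arrays, and at 33.3 and 26.1 in WT. The Het arrays were at or near the floor by both, so only the brightest orders them, with Het replicate 2 lowest.

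Hom was set against WT to ask whether melanocyte transcripts change when no normal fibrillin-1 copy is left. None of the 12 probe sets was 2-fold apart between Hom and WT, where 1.22% of all 11313 were. Of the 12, 8 were higher and 4 lower in Hom (45.7% of all probe sets were higher), with log2 differences between -0.20 (Mitf) and 0.48 (Tyr 1417717_a_at) and a median of 0.05, against a median of -0.03 over all probe sets. In limma's fit 0 of the 12 passed an adjusted p of 0.05 and 0 an unadjusted p of 0.05; over all probe sets 0% passed the first and 0.486% the second. That fit takes its spread from the Het pair, drawn toward a value shared by all 11313 probe sets. It assumes that the lone Hom and WT arrays vary like the Het pair. Its 95% intervals were wide, from -1.15 to 1.49 log2 units for Dct, from -1.33 to 1.42 for Pmel and from -0.79 to 1.75 for Tyr 1417717_a_at, so for Dct and Pmel a 2-fold difference either way lay within the interval.

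Het was set against WT to ask the same of valves that keep 1 normal copy. The median log2 difference of the 12 probe sets was -0.08 in Het replicate 1 and 0.43 in replicate 2, against -0.005 and 0.18 over all probe sets. Relative to WT, 3 of the 12 were higher and 9 lower in Het replicate 1, while 8 were higher and 4 lower in Het replicate 2. Over all probe sets 49.4% were higher than WT in Het replicate 1 and 63.4% in replicate 2, so the count for replicate 2 was close to that of all probe sets. At least 2-fold apart from WT were 0 of the 12 in Het replicate 1 (2.08% of all) and 2 in Het replicate 2 (7.94% of all), both of Tyrp1. After quantile normalization 1 remained, Tyrp1 1415861_at (5.75% of all). With the values as deposited 2 were 2-fold apart, Tyrp1 1415861_at higher and Kit 1452514_a_at lower (7.31% of all). Taking the Het arrays together, 0 of the 12 differed 2-fold in the mean (1.77% of all), 0 passed limma's adjusted threshold (0% of all) and 0 an unadjusted p of 0.05 (1.02% of all). Without Het replicate 1 the count 2-fold apart was 2, with 7.96% of all probe sets past that limit.

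For Dct, Pmel and 2 of the Tyrp1 probe sets, the SD of the Het pair was larger than the difference of the Het mean from WT. The same held for the tested probe sets of Tyr, Ednrb, Mitf and Slc45a2, but not for those of Kit and Sox10. The share of all probe sets for which this held was not counted. For Tyrp1 1415861_at limma gave a Het minus WT log2 difference of 0.68 (SE 0.62, unadjusted p = 0.294, adjusted p = 0.9999) with an SD of 1.16 log2 units between the Het arrays. Without Het replicate 2 the same difference was -0.15. The other way round, Tyrp1 1439409_x_at had a Het minus WT difference of 0.72 and an SD of 0.53, with both Het arrays above Hom and WT. For Dct the difference was 0.23, with an SD of 0.65, and it became -0.23 without Het replicate 2. In Pmel it was 0.31, with an SD of 0.81, and -0.27 without that array. Hom and WT both fell between the Het arrays for 9 of the 12 melanocyte probe sets, where 29.5% of all probe sets did so; the count was 5 with the values as deposited and 7 after quantile normalization. For such probe sets the Het arrays are by definition farther apart than Hom and WT.

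**Figure D2:**
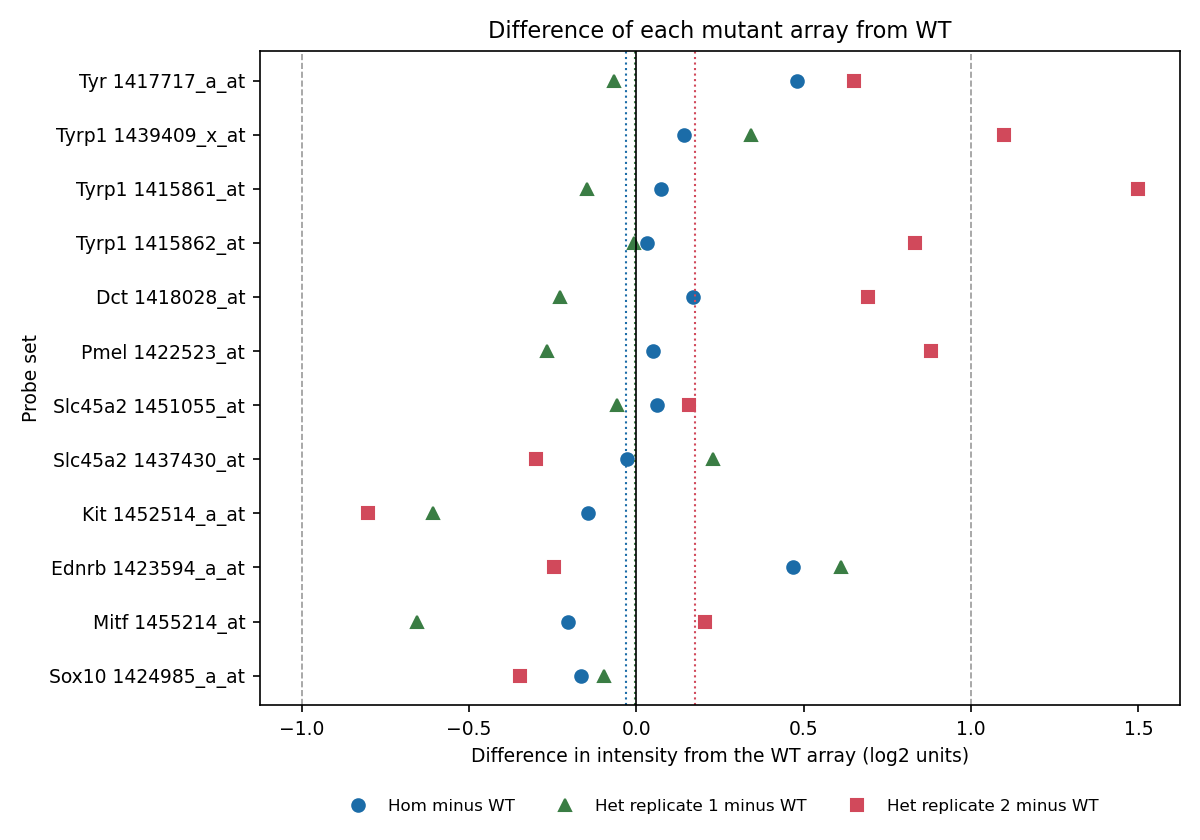
Difference from the WT array (log2 units, horizontal axis) of the Hom array (circles), Het replicate 1 (triangles) and Het replicate 2 (squares) for the 12 melanocyte probe sets in the tests. Dotted lines of the same colours mark the median of all probe sets and dashed lines a 2-fold difference; only 2 Tyrp1 probe sets in Het replicate 2 lie past them.

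Hom was set against Het to ask what the second mutant copy goes with. Hom was higher than Het replicate 2 in 4 of the 12, where 34.9% of all probe sets were, a share close to that of the members, and higher than Het replicate 1 in 8 of the 12, where 47.3% of all were. At least 2-fold apart was 1 of the 12 from Het replicate 2 (Tyrp1 1415861_at, lower in Hom, 8.64% of all) and 0 from Het replicate 1 (1.78% of all). Against the mean of the Het arrays 0 of the 12 were 2-fold apart (1.49% of all), 0 passed limma's adjusted threshold (0% of all) and 0 an unadjusted p of 0.05 (0.796% of all). Without Het replicate 1 the count 2-fold apart was 1, with 8.72% of all probe sets past that limit. No probe set of the 12 had both Het arrays between WT and Hom, as 7.65% of all probe sets did.

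At least 2-fold apart between the Het arrays themselves were 2 of the 12 (11.3% of all), Tyrp1 1415861_at and Pmel, both higher in Het replicate 2; after quantile normalization only the first was (8.38% of all), and with the values as deposited Ednrb 1423594_a_at, lower in Het replicate 2, took the place of Pmel (9.98% of all). Grouped by role, the genes had different medians on Het replicate 2. Over the 8 probe sets of Tyr, Tyrp1, Dct, Pmel and Slc45a2, the median log2 difference of Het replicate 2 from Het replicate 1 was 0.80, and over the 4 of Kit, Ednrb, Mitf and Sox10 it was -0.22, with all probe sets at 0.18. With the values as deposited these medians were 0.54 and -0.48, with all probe sets at -0.08, and after quantile normalization 0.56 and -0.28, with all at -0.01. Of the 8 pigment probe sets, 3 of them of Tyrp1, 7 lay above the median of all probe sets under each of the 3 scalings. Of the other 4 only Mitf did. The centred and deposited values differ by a constant log2 shift for each array, so this count could hardly differ between them. Het replicate 2 was the highest of the 4 arrays in 8 of the 12 (49.9% of all probe sets); with the values as deposited it was highest in 5 (30.7% of all), namely the 3 of Tyrp1, Dct and Pmel, and after quantile normalization in 6, these and Mitf (33.5% of all).

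Other genes of melanosome formation and transport were read as a group. Of 35 such genes, 27 had a probe set and 17 genes, with 20 probe sets, entered the tests. None of the 20 was 2-fold apart between Hom and WT or between either Het array and WT, and 0 passed limma's adjusted threshold. Of all probe sets 1.22% were 2-fold apart from WT in Hom, 2.08% in Het replicate 1 and 7.94% in replicate 2. The median log2 difference of the 20 from WT was 0.13 in Hom, 0.007 in Het replicate 1 and 0.12 in replicate 2, the last below the 0.18 of all probe sets. At least 2-fold higher in Het replicate 2 than in replicate 1 were 2 (8.23% of all), and 1 was lower (3.08% of all). Het replicate 2 was the highest array in 9 of the 20 (49.9% of all). How far this list reports melanocytes in the valve was not tested. Highest in Hom relative to WT was Mlph, melanophilin, which links melanosomes to myosin, at 114 in Hom, 76.1 and 65.2 in the Het arrays, and 66.6 in WT. Rab38, a small GTPase that sorts pigment enzymes to melanosomes, read 69.8 in Hom, 62.3 and 80.6 in the Het arrays, and 42.6 in WT, so that all 3 mutant arrays were above WT. Gpnmb, a relative of Pmel that macrophages also make, read 94.8 in Hom, 42.0 and 123 in the Het arrays, and 67.6 in WT. Atp7a, the copper pump that supplies tyrosinase, read 175 in Hom, 137 and 338 in the Het arrays, and 213 in WT. With Bloc1s6 (-0.30) and Bloc1s3 (-0.26), subunits of a complex of melanosome biogenesis, Atp7a (-0.29) gave the lowest Hom minus WT log2 differences of the list. Chosen after its values were seen, Trpm1, a cation channel of melanocytes and a Mitf target, was too dim for the tests, at 46.6 in Hom, 9.57 and 73.3 in the Het arrays, and 53.2 in WT.

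Of 14 genes for ligands and hormones that act on melanocytes, 5 genes with 8 probe sets entered the tests and 0 passed limma's adjusted threshold. Kitl, stem cell factor, the ligand of Kit, read 141 in Hom, 63.8 and 76.2 in the Het arrays, and 140.4 in WT by probe set 1448117_at. Both Het arrays were low, as for Kit, and Hom equalled WT within 0.002 log2 units. The Het minus WT log2 difference was -1.01 (SE 0.49, n = 2 Het arrays, limma unadjusted p = 0.0583, adjusted p = 0.9999). Probe set 1426152_a_at had the same order at a smaller size (Het minus WT -0.16), at 80.4 in Hom, 70.1 and 75.1 in the Het arrays, and 81.3 in WT. The brightest, 1415855_at, did not share it, at 360.2 in Hom, 326 and 466 in the Het arrays, and 381 in WT, highest in Het replicate 2. Edn1, an endothelin that Ednrb can bind, was high in both Het arrays, at 127 in Hom, 197 and 296 in the Het arrays, and 108 in WT. Its Het minus WT log2 difference was 1.16 (SE 0.50, n = 2 Het arrays, limma unadjusted p = 0.0373, adjusted p = 0.9999). Ece1, which cleaves endothelin precursors, had probe sets that disagreed on Het replicate 2, at -1.23 and 0.04 log2 units from WT, and Pomc, the precursor of melanocortins, read 99.6 in Hom, 73.4 and 90.5 in the Het arrays, and 116 in WT. Mc1r, Fgf2 and Met were below the floor on all 4 arrays. Of 16 further transcription factors only 3 probe sets entered the tests and 0 passed. Tfeb, a relative of Mitf, read 90.1 in Hom, 34.9 and 93.2 in the Het arrays, and 71.6 in WT. Snai2, a repressor active in neural crest, read 61.1 in Hom, 74.0 and 94.9 in the Het arrays, and 52.6 in WT, so all 3 mutant arrays were above WT. Zeb2, a zinc finger factor, read 106 in Hom, 103 and 94.0 in the Het arrays, and 138 in WT, with all 3 mutant arrays below WT.

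Markers of other cells moved with Het replicate 2 as well. Summed over the 9 melanocyte genes, each by its brightest probe set, the level was 2222 in Hom, 1936 and 3034 in the Het arrays, and 2052 in WT, so Het replicate 2 had 1.48 times the WT sum. The largest terms on that array were Dct (851), Pmel (733) and Tyrp1 (632). Kit, Ednrb and Sox10 were there 0.573-fold, 0.844-fold and 0.786-fold WT. In Het replicate 2 the sum was 1.81 times WT for 14 macrophage markers, 2.63 times for 4 erythroid markers with a probe set, 0.595 times for 14 cardiomyocyte markers and 0.654 times for 12 valve interstitial and fibroblast markers. In Het replicate 1 the same 4 sums were 0.854, 0.918, 1.29 and 0.844 times WT, and in Hom 0.957, 1.14, 0.966 and 0.821 times. All these sums used the centred values, and centring shifted Het replicate 2 by 0.19 log2 units and WT by -0.04. The ratios of Het replicate 2 to WT would therefore be lower with the values as deposited. Sums under other scalings were not computed. Alas2 was the largest term of the erythroid sum, at 2579 in Het replicate 2 and 1032 in WT. Het replicate 2 was lowest in 16 of 18 tested cardiomyocyte probe sets and highest in 1, Myl7, at 3041 against 1622 in WT. Of 23 interstitial probe sets it was lowest in 14 and highest in 3, of Tcf21 and Vcan. Over all probe sets it was lowest in 23.0% and highest in 49.9%. The ratio of 3′ to 5′ Actb signal, which rises as RNA degrades, was 2.16 in Hom, 2.19 and 3.04 in the Het arrays, and 2.25 in WT. The same ratio for Gapdh was 3.84 in Hom, 3.19 and 4.65 in the Het arrays, and 4.18 in WT, again highest in Het replicate 2 but with the other arrays farther apart. The part of tissue composition and of RNA integrity in the melanocyte values was not tested.

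Some member genes are not limited to melanocytes, and the markers of those cells were read beside them. Mast cells also use Kit and Mitf. The sum of 10 of 12 mast cell markers was 809.8 in Hom, 886 and 1073 in the Het arrays, and 938 in WT, with Hdc below the floor on every array, and the mast cell protease Cpa3 read 170.4 in Hom, 105 and 246 in the Het arrays, and 166 in WT. The largest term of the sum was Gata2, which read 372 in Hom, 483 and 389 in the Het arrays, and 468 in WT. By its brighter probe set Kit was lowest in Het replicate 2, where the mast cell sum was highest. Endothelium can express Ednrb, and the sum of 12 endothelial markers was 5947 in Hom, 6320 and 5438 in the Het arrays, and 6719 in WT. Ednrb and the endothelial sum were both lowest in Het replicate 2, but their order on the other arrays differed. The sum was highest in WT, where Ednrb 1423594_a_at read 143, below the 198 of Hom and the 218 of Het replicate 1. Schwann cells share Sox10, and the sum of 10 of 14 Schwann cell markers was 1646 in Hom, 2301 and 2307 in the Het arrays, and 1884 in WT. The largest term of the sum was Pmp22, a myelin gene, which read 960.1 in Hom, 1617 and 1149 in the Het arrays, and 1121 in WT. Of the 8 Schwann cell probe sets in the tests, 6 were highest in Het replicate 2, as were 49.9% of all probe sets. On that array 3 were at least 2-fold above WT, 1 each of Gap43, Cnp and Egr2 (5.68% of all). The other tested probe sets of Cnp and Egr2 were 0.02 and 0.82 log2 units above WT. By its brightest probe set Sox10 was lowest in Het replicate 2. Skin and hair follicles are the usual seat of melanocytes, and the sum of 10 of 11 epidermis markers was 589 in Hom, 440.3 and 693 in the Het arrays, and 538 in WT. Of these, Krt15, Ivl and Flg were below the floor on every array, and 2 genes entered the tests, loricrin (Lor) and desmoplakin (Dsp), which heart muscle also makes. The part of each of these cell types in the melanocyte values was not tested.

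**Figure D3:**
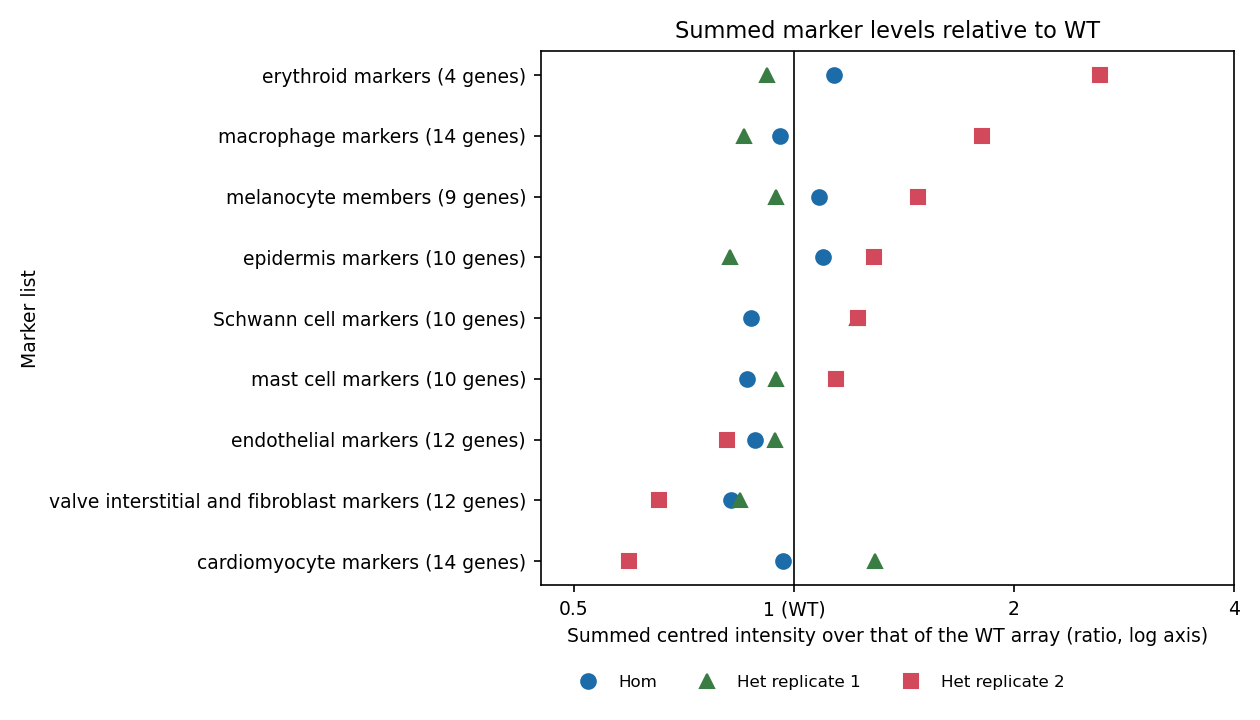
Summed centred intensity of each marker list, 1 probe set for each gene, as a ratio to the sum on the WT array (horizontal log axis), for Hom (circles), Het replicate 1 (triangles) and Het replicate 2 (squares). In Het replicate 2 the melanocyte sum is 1.48 times WT, with macrophage and erythroid sums further above WT and cardiomyocyte and interstitial sums below it. Centring raised Het replicate 2 relative to WT, and sums under other scalings were not computed.

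Dct was the brightest of the melanocyte probe sets, and its pattern over the 4 arrays was searched for elsewhere. Of the 11301 tested probe sets outside the members, the 5 nearest to it in log2 deviation from their own mean over the 4 arrays were Trip10, Ccdc12, Rps27l, St7l and Rab14, at Euclidean distances between 0.02 and 0.05, where the median distance was 0.67. Pmel lay at 0.23, Tyrp1 1415862_at at 0.28, Tyr 1417717_a_at at 0.28 and Mitf at 0.38. Farther off were Tyrp1 1439409_x_at at 0.52 and the Slc45a2 probe sets at 0.52 and 1.05. Tyrp1 1415861_at, at 0.71, lay beyond the median distance. Ranked among all other probe sets by nearness to Dct, Pmel came at 386, so many genes outside the members lay nearer. Kit and Ednrb were farthest from Dct among the members, at 1.13 and 1.29.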

How the data were processed

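Total RNA of mouse mitral valve was read on 4 arrays (1 Hom, 2 Het, 1 WT). The deposited values are linear intensities, 1 per probe set (22690); the software behind them is not given in the sources used here. The trimmed means of the 4 arrays were nearly equal, as after scaling to 1 target. The 64 control probe sets were left out, each array was centred on the common log2 median (shifts between -0.08 and 0.19), values were floored at the 25th percentile (19.0) and log2 was taken. Gene names came from the platform's annotation and were brought up to date through gene identifiers (20364 matched of 20393 probe sets with 1 gene). Probe sets with a mean of at least the median (62.6) were tested in R 4.3.3 by limma 3.58.1 (lmFit, eBayes, Benjamini-Hochberg over all 11313, threshold 0.05, 3 groups, 1 residual degree of freedom), and a 2-fold limit needed no test. The fit was tested on simulated data. The Het arrays shared 82 identical values, so they were not duplicates. Named genes were all members, in each list the 3 that were highest and the 3 that were lowest in Hom over WT, and the 5 probe sets nearest to Dct in pattern; others the text names, such as Dcn, Trpm1, the brightest Kitl probe set and the single markers of other cells, were chosen after their values were seen. The members and lists were chosen with earlier results of these data known. Alternatives were other scalings, floors, filters, probe set rules, eBayes with trend and robust, and each Het array left out. Python 3.11.15 and matplotlib 3.10.9 made the figures.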

Additional observations from a re-analysis of the deposited data

How the results depend on the processing

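Under 11 alternatives the count of melanocyte probe sets at least 2-fold apart stayed at 0 for Hom against WT. It ranged from 0 to 2 for Het against WT and from 0 to 1 for Hom against Het, the higher values without Het replicate 1. Limma called 0 in every alternative that allowed a test; leaving out a Het array leaves no residual degrees of freedom, so those are values with no test. The floor, filter and eBayes alternatives leave the single differences unchanged or nearly so, and leaving out a Het array cannot move one by more than the SD of the pair, so their steadiness says nothing of stability. Their sign changed in 24 of 330 values; of the Hom minus WT differences only Slc45a2 1437430_at did. Het minus WT for Dct ranged from -0.23 to 0.69 and for Tyrp1 1415861_at from -0.15 to 1.499, the ends being the Het arrays taken singly. Over the 3 scalings Het replicate 2 was the highest array in 5 to 8 of the 12. With the filter at the 75th percentile only 5 member probe sets remained. No paired analysis was possible because the labels give replicate numbers to the Het arrays alone. Dim probe sets near the floor allow no fold.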
